A study of Rattus norvegicus with 12 samples.

Results

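Intercalated cells of the kidney's connecting tubule and collecting duct secrete acid or bicarbonate, and 10 genes of their acid-base machinery are described here across lean, obese and drug-treated obese rats. The genes are the transcription factor Foxi1, the V-ATPase (proton pump) subunits Atp6v1b1, Atp6v0d2, Atp6v0a4 and Atp6v1g3, the chloride-bicarbonate exchangers Slc4a1, Slc26a4 and Slc4a9, and the ammonia transporters Rhcg and Rhbg. They were taken by symbol from a table of 13151 genes, with no threshold on a measured value, though earlier results of these data were known when the set was chosen. All 10 were in the table, and all 10 were among the 11633 genes tested, those that reached a value of 1 in 4 or more rats.

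Total RNA of the renal cortex was sequenced from 12 male rats aged 32 weeks, 4 in each of 3 groups. Zucker lean rats (ZL) were the untreated lean controls, and Zucker fatty rats (ZF), in which the leptin receptor is deficient, were the untreated obese model. ZF-SGLT2i rats were Zucker fatty rats given canagliflozin, an inhibitor of the sodium-glucose cotransporter SGLT2, in their food at 10 mg/kg/day, begun at 24 weeks of age and kept up for 8 weeks. The receptor defect of ZF rats is inherited and not limited to the kidney, and the pieces were whole cortex rather than sorted cells. In such bulk tissue, fewer cells of a type and less RNA per cell cannot be told apart. The study describes surgical wedge biopsies of the kidney in the cohort that compared lean with fatty rats and none in the drug cohort. Its text calls the sequenced untreated obese rats ZF. A figure legend also calls them ZF-NT, the study's name for the untreated rats of the drug cohort. Which cohort the sequenced ZF rats came from is not otherwise given in the sources used here. An effect of biopsy therefore cannot be told apart from that of the groups, in ZF-SGLT2i against ZL and in whichever comparison of ZF joins the cohorts.

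Type A intercalated cells pump protons into the urine through an apical V-ATPase and return bicarbonate to the blood through Slc4a1 (AE1, band 3). Non-A cells carry Slc26a4 (pendrin) on the apical side, which exchanges chloride for bicarbonate, and Slc4a9 (AE4) on the basolateral side. Foxi1 is the forkhead factor that these cells need to form and to express their proton pump and exchangers, while Rhcg and Rhbg carry the ammonia that buffers the secreted acid. The V-ATPase is built from subunits that often have a widespread isoform and one enriched in specialised cells: B1 (Atp6v1b1), d2 (Atp6v0d2), a4 (Atp6v0a4) and G3 (Atp6v1g3) are of the second kind.

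Because Foxi1 binds forkhead motifs, the 250 bases before the start of the members' genes were read from RefSeq (build GRCr8). The set of promoters used held 8 of the 10, without Atp6v0d2 and Slc4a1. These 8 were searched on both strands for TGTTTAC and for the variants of it written TATTTAC, or written TGTTTAT, or written TATTTAT. Each of 3 members held 1 match, against 14.2% of all 27457 promoters and 7.49% of the 8824 promoters of other tested genes. These 3 promoters are shown because they are the ones with a match, which is in capitals. RefSeq's start for Atp6v1g3 lies within the annotated span of that gene.
Atp6v1b1, chr4:117781194-117781443, plus strand, match beginning 93 bases before the start: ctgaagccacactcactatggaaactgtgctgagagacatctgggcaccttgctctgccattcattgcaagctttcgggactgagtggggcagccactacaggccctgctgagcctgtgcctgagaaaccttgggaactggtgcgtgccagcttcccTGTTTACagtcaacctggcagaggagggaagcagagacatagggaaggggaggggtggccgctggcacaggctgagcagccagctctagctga
Atp6v1g3, chr13:52362082-52362331, plus strand, match beginning 221 bases before the start: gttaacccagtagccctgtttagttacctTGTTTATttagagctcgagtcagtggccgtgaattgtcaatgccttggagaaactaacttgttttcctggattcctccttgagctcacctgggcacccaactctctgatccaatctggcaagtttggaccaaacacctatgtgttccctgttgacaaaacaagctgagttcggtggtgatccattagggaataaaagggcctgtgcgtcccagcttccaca
Slc4a9, chr18:28402543-28402792, plus strand, match beginning 223 bases before the start: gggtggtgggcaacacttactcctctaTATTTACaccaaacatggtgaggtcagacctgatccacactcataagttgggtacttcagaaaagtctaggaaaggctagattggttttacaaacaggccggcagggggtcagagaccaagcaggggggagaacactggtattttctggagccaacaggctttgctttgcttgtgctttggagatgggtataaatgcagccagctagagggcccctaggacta
The promoters of Atp6v0a4, Slc26a4, Rhcg, Rhbg and Foxi1 held none of these letters in this window.

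The level of each gene is given below as the deposited normalized value, scaled so that each rat's values summed to between 948262 and 1058520. Every value was a whole multiple of its rat's smallest value, and these multiples summed to between 8824980 (ZF rat 5) and 12210257 (ZL rat 2) per rat. The members stood at 697 to 8782 multiples in every rat. Levels were not scaled to transcript length, so the gene called most abundant in a list is only the one with the highest normalized value there. Markers of the cortex were present in every rat (the podocyte list summed to 1091 to 1764 and the proximal tubule list to 13880 to 23340), and 5 inner medullary genes summed to 121 to 200. ZL rat 4 and ZF rat 2 stood apart in thick ascending limb genes, which summed to 6527 and 6344 there and to between 3803 and 5309 in the other rats.

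Foxi1 was measured at 98.4, 160, 123 and 78.1 in ZL rats 1 to 4, at 90.6, 110, 97.3 and 141 in ZF rats 2 to 5, and at 154, 114, 144 and 135 in ZF-SGLT2i rats 2, 3, 4 and 6. The 3 groups overlapped, and the ZL rats alone covered the range of the others, with a 2.05-fold gap from ZL rat 4 to ZL rat 2. ZF differed from ZL by -0.03 on the log2 scale and ZF-SGLT2i from ZF by 0.33, with 95% confidence intervals of -0.44 to 0.37 and -0.08 to 0.73. Neither passed the test (limma, adjusted p = 0.93 and 0.40). Foxi1 had the widest spread of the 10 members within the ZL and ZF-SGLT2i groups.

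Atp6v1b1, the B1 subunit of the pump's catalytic head, was at 257, 315, 269 and 195 in the ZL rats, 243, 291, 237 and 325 in the ZF rats, and 289, 309, 331 and 322 in the ZF-SGLT2i rats. The groups overlapped in all 3 comparisons. The difference between ZF-SGLT2i and ZF was 0.20 on the log2 scale (95% interval -0.08 to 0.48; adjusted p = 0.47, limma).

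Atp6v0d2, the d2 subunit that joins the pump's head to its membrane part, was at 90.5, 109, 94.2 and 69.2 in ZL, 88.4, 92.2, 73.2 and 114 in ZF, and 123, 125, 125 and 130 in ZF-SGLT2i. All 4 treated rats lay above all 8 untreated rats. Its mean was 125.7 ± 3.09 (SD, n = 4) in ZF-SGLT2i, 92.1 ± 17.0 in ZF and 90.7 ± 16.3 in ZL, and it rose 1.4-fold in ZF-SGLT2i against ZL (log2 fold change 0.49, SE 0.13; limma adjusted p = 0.015). Against ZF the fold was 1.38 (adjusted p = 0.075).

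Atp6v1g3, the G3 subunit of the pump's stalk, was at 156, 240, 211 and 146 in ZL, 167, 198, 141 and 231 in ZF, and 281, 265, 261 and 283 in ZF-SGLT2i. Again the lowest treated rat lay above the highest of both other groups. It rose 1.47-fold against ZL (log2 fold change 0.56, SE 0.16; limma adjusted p = 0.018) and stood 1.5-fold higher against ZF without passing the test (adjusted p = 0.064).

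Atp6v0a4, the a4 subunit of the membrane part, was the steadiest of the 4 pump members. It was at 702, 761, 738 and 622 in ZL, 643, 724, 723 and 705 in ZF, and 802, 775, 799 and 781 in ZF-SGLT2i. The treated rats did not overlap the other groups, yet the differences were small: the log2 fold change was 0.18 against ZF (limma adjusted p = 0.21) and 0.16 against ZL (adjusted p = 0.10).

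Among the exchangers, Slc26a4 of the non-A cells showed the largest difference between ZF-SGLT2i and ZL of the 10 members. It was at 274, 388, 353 and 236 in ZL, 325, 394, 298 and 442 in ZF, and 488, 500, 470 and 526 in ZF-SGLT2i. Its mean was 312.6 ± 70.2 (SD, n = 4) for ZL, 364.8 ± 65.4 for ZF and 495.9 ± 23.8 for ZF-SGLT2i, where ZL and ZF overlapped and the treated rats lay above both. It rose 1.61-fold in ZF-SGLT2i against ZL (log2 fold change 0.69, SE 0.15; limma adjusted p = 0.0040), and the fold against ZF was 1.37 (adjusted p = 0.12).

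Slc4a9, the basolateral exchanger of the same cells, was at 172, 258, 282 and 154 in ZL, 176, 223, 159 and 280 in ZF, and 315, 322, 300 and 338 in ZF-SGLT2i. The treated rats again lay above every untreated rat. It rose 1.52-fold against ZL (log2 fold change 0.60, SE 0.19; limma adjusted p = 0.033), and it stood 1.56-fold higher against ZF (adjusted p = 0.094).

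Slc4a1, the exchanger of type A cells, took a different course. It was at 446, 620, 555 and 428 in ZL, 392, 454, 324 and 496 in ZF, and 572, 588, 587 and 571 in ZF-SGLT2i. The mean was 416.7 ± 75.3 (SD, n = 4) in ZF against 512.4 ± 91.3 in ZL, a log2 fold change of -0.30 that did not pass the test (limma adjusted p = 0.13). The ZF-SGLT2i rats, at 579.5 ± 9.31, did not overlap ZF (log2 fold change 0.49, adjusted p = 0.060) but lay inside the ZL range (log2 fold change 0.19, adjusted p = 0.30).

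Slc4a1 is also an abundant gene of red blood cells, so a list of 11 red cell genes was read beside it. In the table were 7 (Hba1 and Hba2 under these newer symbols), 5 of which were tested, and Ahsp, Rhag and Hba-a3 were among those not found under these symbols. Alas2, the enzyme that starts heme synthesis in red cell precursors, averaged 0.172, 0.332 and 0.379 in the ZL, ZF and ZF-SGLT2i groups and was not among the genes tested. The list summed to between 7.20 and 8.73 in the ZL rats, 7.92 and 30.6 in the ZF rats, and 5.35 and 58.7 in the ZF-SGLT2i rats. Its most abundant gene, the globin Hba2, averaged 2.61 ± 0.24, 9.46 ± 3.92 and 14.1 ± 12.6 (SD, n = 4) in the same order and rose in ZF (log2 fold change 1.44, limma adjusted p = 0.0498), a call kept in 7 of 19 alternative settings. It was lost when any ZL rat, ZF rat 2, 4 or 5, or ZF-SGLT2i rat 2 or 4 was left out. None of the 5 tested red cell genes passed in ZF-SGLT2i against ZF, and none had an unadjusted p under 0.05 there. Slc4a1 was lowest in ZF, where Hba2 was above the lean rats. The part that red cells have in the level of Slc4a1 was not tested.

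Rhcg, the ammonia transporter found on both faces of acid-secreting cells, was at 239, 327, 270 and 203 in ZL, 255, 287, 217 and 328 in ZF, and 333, 358, 331 and 395 in ZF-SGLT2i. The lowest treated rat exceeded the highest untreated rat by a small margin. It rose 1.38-fold against ZL (log2 fold change 0.46, SE 0.14; limma adjusted p = 0.025), while the fold against ZF was 1.31 (adjusted p = 0.15).

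Rhbg, the basolateral ammonia transporter, was at 80.6, 110, 86.0 and 62.3 in ZL, 98.2, 120, 87.4 and 132 in ZF, and 100, 115, 112 and 123 in ZF-SGLT2i. Here the treated rats lay inside the ZF range. The log2 fold change was 0.37 in ZF against ZL (limma adjusted p = 0.10), 0.06 in ZF-SGLT2i against ZF (95% interval -0.27 to 0.38; adjusted p = 0.89) and 0.43 in ZF-SGLT2i against ZL, which passed the test (adjusted p = 0.049). This last call was kept in 8 of 20 alternative settings and was lost without ZL rat 1, 3 or 4, without ZF rat 2 or 3, and without any of the ZF-SGLT2i rats.

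**Figure D1:**
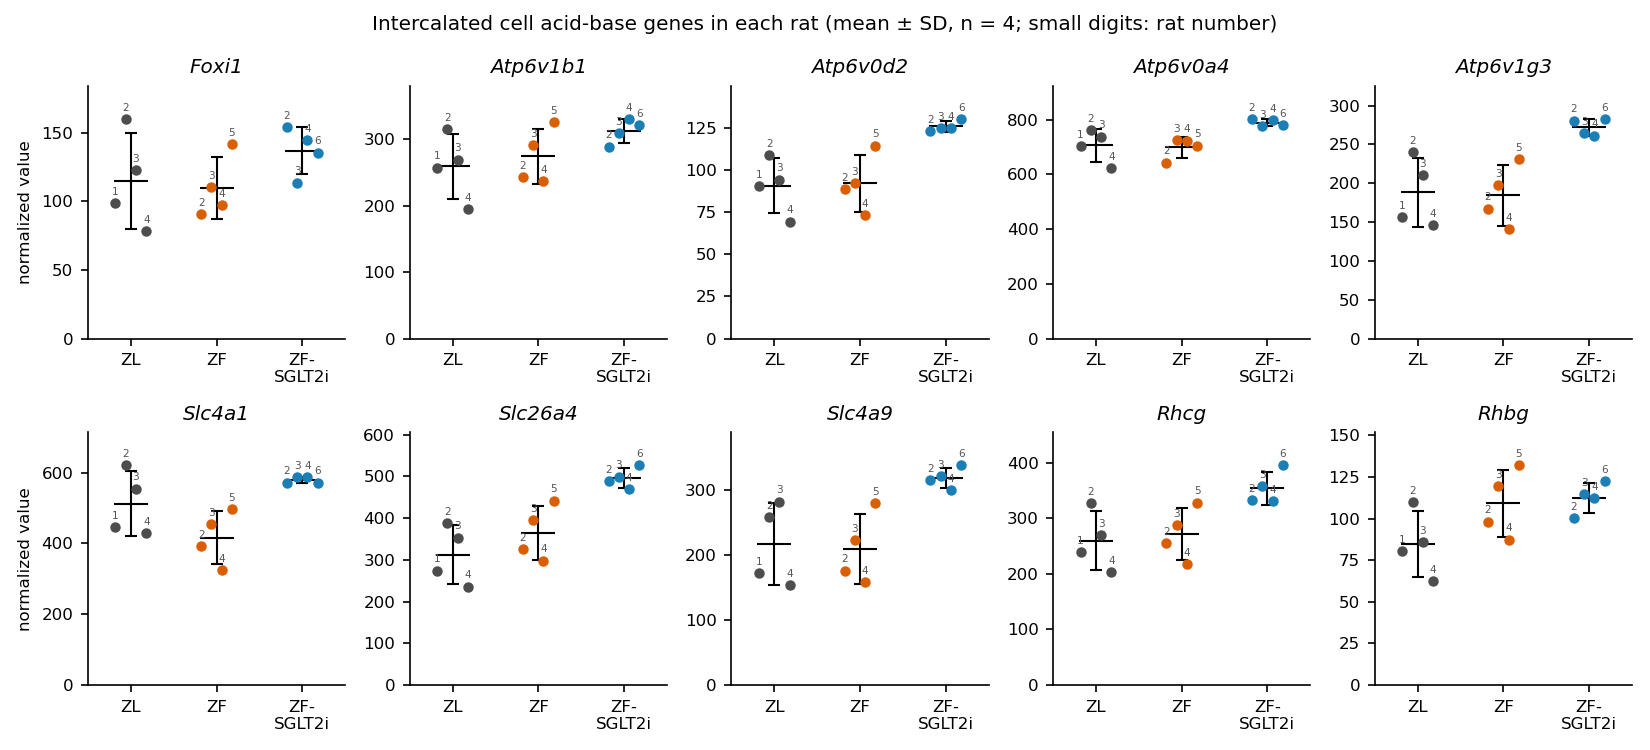
Normalized value (vertical axis, starting at 0) of the 10 genes in each of the 12 rats, with group means and SDs (n = 4) as black bars and rat numbers as small digits. The treated rats lie close together and above all untreated rats for Atp6v0d2, Atp6v0a4, Atp6v1g3, Slc26a4, Slc4a9 and Rhcg.

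The first comparison asks what obesity changed. None of the 10 members passed an adjusted p of 0.05 in ZF against ZL, while 18.8% of all tested genes did. At an unadjusted p of 0.05, 2 of 10 passed, Slc4a1 lower and Rhbg higher, against 33.1% of all tested genes. No member had non-overlapping groups, against 19.0% of all tested genes. The log2 fold changes ran from -0.30 (Slc4a1) to 0.37 (Rhbg), 5 of 10 were above 0, and their median was 0.0049 beside -0.0077 over all tested genes. Rhbg passed when ZL rat 2 was left out, or when ZF rat 4 was left out.

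The second comparison asks what the drug changed in obese rats. All 10 members were higher in ZF-SGLT2i than in ZF, with a median log2 fold change of 0.425 (range 0.06 for Rhbg to 0.64 for Slc4a9), beside 0.0064 over all tested genes. None passed the adjusted test (lowest adjusted p 0.060, Slc4a1, limma), in a comparison where 3.15% of all tested genes passed. At an unadjusted p of 0.05, 7 of 10 were higher, against 8.52% of all tested genes. The same 7 had groups that did not overlap, against 5.54% of all tested genes higher in this way: Atp6v0d2, Atp6v0a4, Atp6v1g3, Slc4a1, Slc26a4, Slc4a9 and Rhcg. For each of the 7 the exact permutation test over the 70 assignments of rats gave p = 0.0286 (two-sided), the smallest it can give.

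This count of calls moved with single rats. With ZF rat 5, the highest ZF rat for 9 of 10 members, left out, 5 members passed (Atp6v0d2, Atp6v1g3, Slc26a4, Slc4a1 and Slc4a9), and 5 passed when ZL rats were kept out of the fit. It was 4 without ZL rat 4 and 2 without ZL rat 2, which enter this comparison only through the shared estimate of spread. Calls over all 11633 tested genes moved too, from 366 to 570 without ZF rat 5, 477 with ZL rats kept out, 525 without ZL rat 4 and 376 without ZL rat 2.

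The third comparison sets treated obese rats against lean rats, and it shares the treated rats with the second. All 10 members were higher, with a median log2 fold change of 0.447, beside -7e-05 over all tested genes. Passing the adjusted test were 6 of 10 (Slc26a4, Atp6v0d2, Atp6v1g3, Rhcg, Slc4a9 and Rhbg), all higher, against 12.4% of all tested genes that rose and 27.4% that passed in either direction. At an unadjusted p of 0.05, 8 of 10 were higher, against 18.4%, and for 6 of 10 the groups did not overlap, against 12.9%. Atp6v1b1, Atp6v0a4, Slc4a1 and Foxi1 did not pass. Slc26a4 and Atp6v0d2 passed in all 20 alternative settings, whereas the count was 2 without ZL rat 1 and 3 without ZL rat 4, ZF-SGLT2i rat 3 or ZF-SGLT2i rat 6. Atp6v1g3 was lost without ZL rat 1, Rhcg without any of these 4 rats, and Slc4a9 without any of them or without ZF-SGLT2i rat 2.

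**Figure D2:**
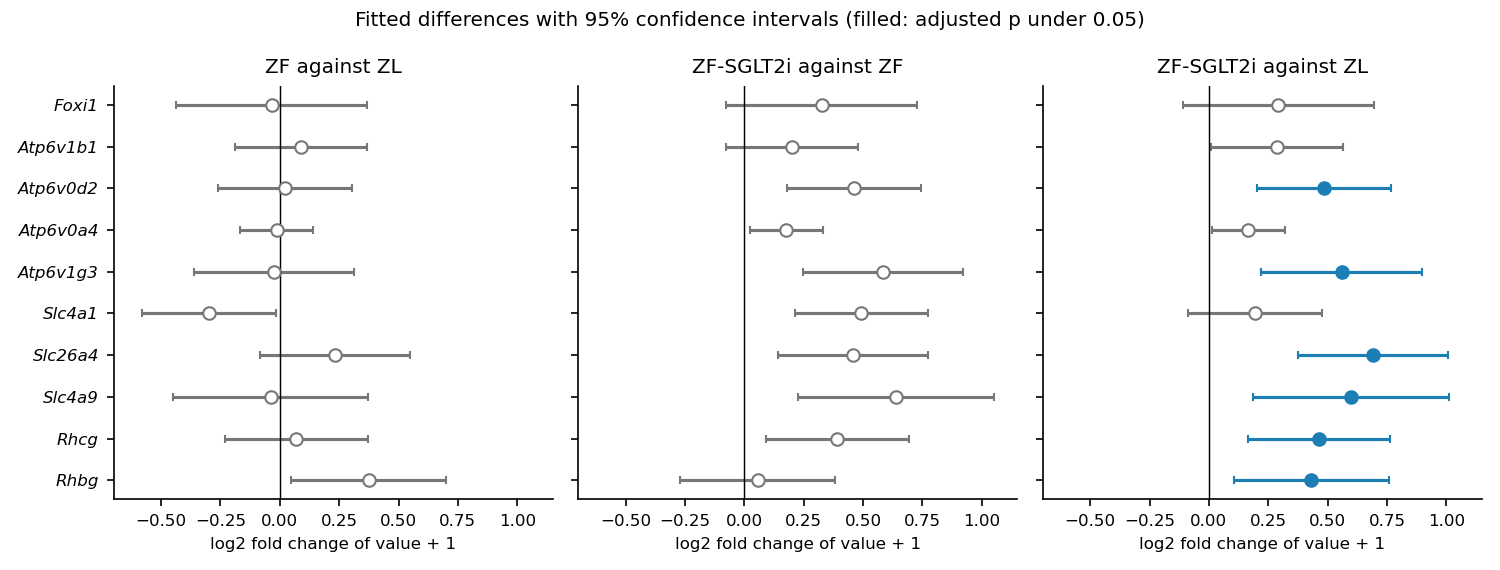
Fitted log2 fold change of value + 1 (horizontal axis) with 95% confidence intervals for the 10 genes in the 3 comparisons, filled where the adjusted p was under 0.05. No point is filled in the first pair of panels, 6 are filled in ZF-SGLT2i against ZL, and every point in the panels of treated rats lies to the right of 0.

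The members moved together from rat to rat. In ZL, rat 4 was lowest for 10 of 10 members and rat 2 was highest for 9, and in ZF, rat 5 was highest for 9 and rat 4 lowest for 8. Over the 45 pairs of members and all 12 rats, which include the group differences, the median Pearson r was 0.834. It ran from 0.459 between Slc4a1 and Rhbg to 0.977 between Atp6v1g3 and Slc4a9. Rhbg (median r of 0.724 with the others) and Slc4a1 (0.773) were the least like the rest, and Rhcg (0.918) and Atp6v0d2 (0.908) the most.

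In the members, the treated rats differed little among themselves. The median coefficient of variation of the members was 21.3% in ZL, 18.2% for ZF and 4.88% for ZF-SGLT2i. It was lower in ZF-SGLT2i than in ZF for 10 of 10 members, against 60.0% of all tested genes, whose medians were 10.2%, 9.97% and 8.64%. The same was so for 5 of 5 distal tubule genes, 7 of 7 thick ascending limb genes, 10 of 11 principal cell genes and 14 of 16 other intercalated cell genes. It was so for 4 of 5 podocyte, 3 of 4 inner medullary, 5 of 8 proximal acid-base, 5 of 9 proximal tubule, 9 of 19 other V-ATPase, 2 of 5 red cell and 1 of 7 macrophage genes, and the median coefficient of the macrophage genes was 37.3% in the treated rats against 20.9% in ZF. Slc4a1 had the narrowest spread in the treated rats (1.61%, against 18.1% in ZF), followed by Atp6v0a4 (1.71%) and Atp6v0d2 (2.46%). If 1 multiple is 1 read, counting alone gives 1.32%, 1.13% and 2.85% for these 3 genes, so their treated spreads are near or below counting error. Foxi1 kept a coefficient of 12.6%. These are descriptions of 4 rats a group, with no test.

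**Figure D3:**
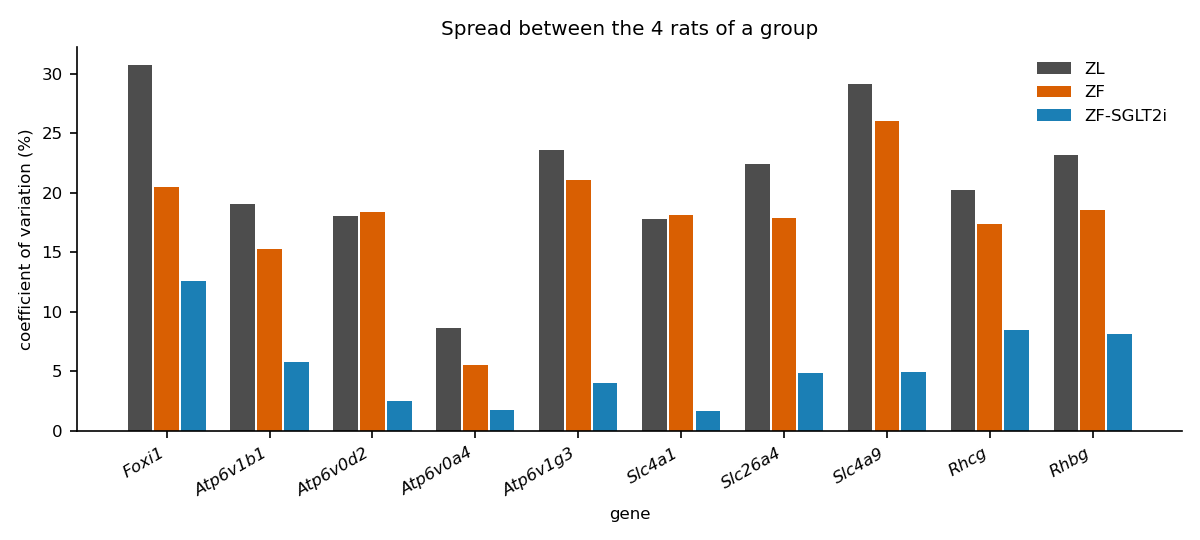
Coefficient of variation (%, vertical axis from 0) of each gene between the 4 rats of each group. The ZF-SGLT2i bars are lower than the ZF bars for all 10 genes and range from 1.61% (Slc4a1) to 12.6% (Foxi1).

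Other genes of the same cells were read from a list of 19, 17 of them present in the table and 16 tested. In ZF-SGLT2i against ZF, 16 of 16 had a fitted log2 fold change above 0 (median 0.39). At an unadjusted p of 0.05, 13 of them were higher, against 8.52% of all tested genes. The adjusted test was passed by 1 in the main fit and by 1 to 7 over the 20 alternative settings. For Slc4a8 the log2 fold change was 0.0039, with group means of 5.61 in ZF-SGLT2i and 5.65 in ZF. The gene that passed in the main fit was Kit, a receptor tyrosine kinase that marks intercalated cells. It was at 81.8, 93.3, 69.6 and 80.3 in ZF and 125, 129, 125 and 133 in ZF-SGLT2i. Kit rose 1.57-fold (log2 fold change 0.66, limma adjusted p = 0.0013), and its ZF level was close to the ZL level (77.1 ± 8.83 in ZL and 81.3 ± 9.71 in ZF, SD, n = 4).

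In ZF against ZL, 3 of the 16 passed, beside 18.8% of all tested genes. Aqp6, the vesicle water and anion channel of type A cells, rose 1.42-fold (log2 fold change 0.51, limma adjusted p = 0.0069). Slc26a7, a basolateral exchanger of type A cells, fell from 9.06 ± 0.59 to 5.17 ± 0.41 (SD, n = 4), by 0.71 on the log2 scale (adjusted p = 0.00040). Car2, the cytosolic carbonic anhydrase that supplies protons and bicarbonate but is also found in proximal tubules, fell by 0.23 on the log2 scale (adjusted p = 0.036), a call that was lost in 10 of 20 alternative settings, among them leaving out any ZL rat or ZF rat 2, 3 or 5.

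In ZF-SGLT2i against ZL, 12 of the 16 rose, against 12.4% of all tested genes. The 1 that fell was Slc26a7 (by 0.40 on the log2 scale, limma adjusted p = 0.0067). Aqp6 rose 1.88-fold (adjusted p = 9.1e-05). Tfcp2l1, a transcription factor of intercalated and principal cells and the most abundant gene of the list, rose 1.55-fold (adjusted p = 0.0024). Against ZL, Slc26a7 thus stood apart from the members: it was highest in lean rats, and all 4 ZL rats (8.62 to 9.92) lay above all 8 obese rats (4.79 to 7.25). Between the obese groups it went the way of the members. It was higher in ZF-SGLT2i than in ZF without overlap (log2 fold change 0.31, limma adjusted p = 0.10).

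The widespread V-ATPase isoforms did not follow their intercalated cell counterparts. Atp6v1b2, the B2 isoform found in proximal tubules and most other cells, was at 359, 351, 406 and 328 in ZL, 257, 302, 364 and 269 in ZF, and 234, 227, 255 and 208 in ZF-SGLT2i. It fell by 0.64 on the log2 scale in ZF-SGLT2i against ZL (limma adjusted p = 0.00068), with no overlap between these groups. Atp6v0d1, the d1 isoform, fell by 0.29 in ZF against ZL (adjusted p = 0.011) and by 0.44 in ZF-SGLT2i against ZL (adjusted p = 0.00060). Atp6v1g1, the G1 isoform, fell by 0.23 and by 0.28 in the same comparisons (adjusted p = 0.020 and 0.0044), and Atp6v0a1, the a1 isoform, fell by 0.15 in the latter (adjusted p = 0.034). The fall of Atp6v1g1 in ZF no longer passed without ZL rat 4 or without ZF rat 2, 3 or 5, and that of Atp6v0a1 without ZL rat 1 or 3 or without ZF-SGLT2i rat 2, 3 or 4.

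In ZF against ZL, 18.8% of all tested genes passed in either direction. Over the 19 other V-ATPase subunits and accessory genes, 3 fell and none rose there (Atp6v1g1, Atp6v0d1 and Atp6v0e2, median log2 fold change -0.13). None passed in ZF-SGLT2i against ZF, where 13 of 19 were higher and the median was 0.048, and 3 had an unadjusted p under 0.05 (Atp6v1b2 lower, Atp6v1c2 and Atp6ap2 higher). In ZF-SGLT2i against ZL, 6 fell (Atp6v1b2, Atp6v1c1, Atp6v1g1, Atp6v0a1, Atp6v0d1 and Atp6v0e2) and 2 rose, beside 27.4% of all tested genes in either direction. The pair that rose were Atp6v1c2 (log2 fold change 0.54, limma adjusted p = 0.023), the C2 isoform, and Tcirg1 (0.31, adjusted p = 0.020), the a3 isoform known from osteoclasts. Single rats decided some of these calls: Atp6v0e2 in ZF was lost without ZL rat 1 or 4 or ZF rat 2 or 5, and in the treated rats without ZF-SGLT2i rat 6. Atp6v1c2 was lost without ZL rat 1 or 4 or ZF-SGLT2i rat 3 or 6, and Tcirg1 without ZL rat 1 or ZF-SGLT2i rat 2 or 3. The main catalytic subunit Atp6v1a, which has no other isoform and is the most abundant of the list, averaged 653, 592 and 596 in ZL, ZF and ZF-SGLT2i.

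Ratios within a rat, in which the scaling of the library drops out, gave the same contrast. The log2 ratio of Atp6v1b1 to Atp6v1b2 averaged -0.49 ± 0.25 in ZL, -0.12 ± 0.37 for ZF and 0.44 ± 0.14 for ZF-SGLT2i (SD, n = 4). It was 0.55 higher in ZF-SGLT2i than in ZF and 0.93 higher than in ZL, without overlap (two-sided exact permutation test, p = 0.0286, adjusted p = 0.0429 over 9 ratio comparisons). ZF and ZL overlapped (difference 0.38, exact p = 0.17).

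The other isoform pairs were added after their levels had been seen. The ratio of Atp6v0d2 to Atp6v0d1 was 0.61 higher (log2) in ZF-SGLT2i than in ZF, that of Atp6v1g3 to Atp6v1g1 0.64 higher and that of Atp6v0a4 to Atp6v0a1 0.26 higher. Against ZL the differences were 0.92, 0.84 and 0.31. None of these 6 comparisons had overlapping groups, which is a description with no test, since the pairs were chosen with these levels known. In ZF against ZL the 3 ratios overlapped, with differences of 0.32, 0.20 and 0.06.

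The ratio of Slc4a1 to Slc26a4, which sets the type A exchanger against the non-A exchanger, separated lean from obese rats. Its log2 value was 0.70, 0.68, 0.65 and 0.86 in ZL, 0.27, 0.20, 0.12 and 0.17 in ZF, and 0.23, 0.23, 0.32 and 0.12 in ZF-SGLT2i. It was 0.53 lower in ZF than in ZL, a ratio of 0.692 on the linear scale, and the groups did not overlap (exact permutation test, p = 0.0286, adjusted p = 0.0429). It was 0.50 lower in ZF-SGLT2i than in ZL (same p values). Between ZF-SGLT2i and ZF it differed by 0.04, within the spread between rats (pooled SD 0.07, exact p = 0.54).

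The ratio of Rhcg to Rhbg followed yet another order. Its log2 value was 1.61 ± 0.06 in ZL, 1.31 ± 0.05 for ZF and 1.65 ± 0.07 for ZF-SGLT2i (SD, n = 4). It was 0.30 lower in ZF than in ZL and 0.34 higher in ZF-SGLT2i than in ZF, with no overlap in either (exact permutation test, p = 0.0286, adjusted p = 0.0429). ZF-SGLT2i and ZL overlapped and differed by 0.03 (exact p = 0.57). Leaving out any single rat kept the differences of these ratios that passed at 0.278 or more in size for Rhcg to Rhbg and at 0.451 or more for Slc4a1 to Slc26a4.

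**Figure D4:**
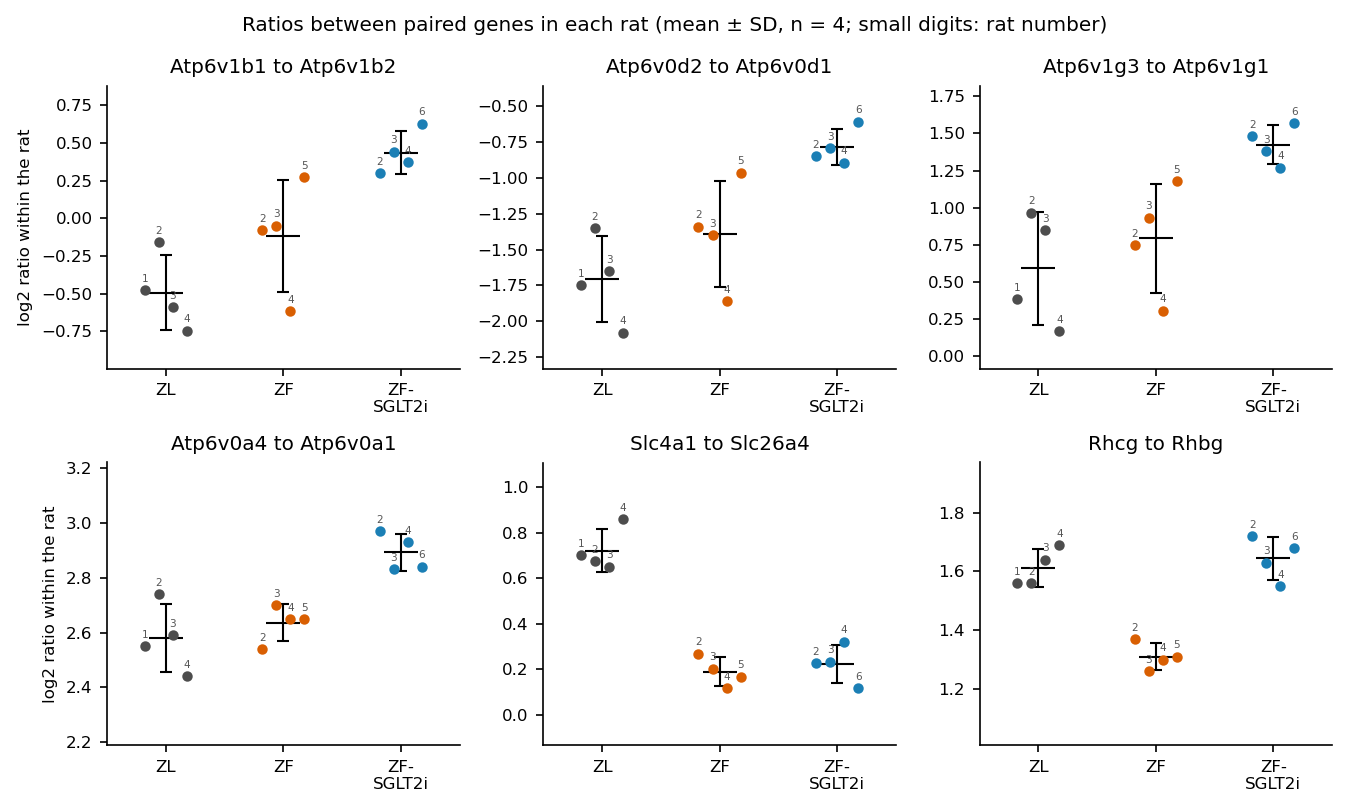
Log2 ratio of paired genes within each rat (vertical axes, which do not start at 0), with group means and SDs (n = 4) in black and rat numbers as small digits. The V-ATPase ratios are highest in the treated rats, the Slc4a1 to Slc26a4 ratio separates ZL from both obese groups, and the Rhcg to Rhbg ratio is lowest in ZF.

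Ammonia made in the proximal tubule feeds the Rh transporters, and 8 genes of proximal acid-base handling were read beside them. In ZF against ZL, 1 rose and 2 fell, beside 18.8% of all tested genes called in either direction. Pck1, the gluconeogenic enzyme whose activity goes with ammonia production, rose 1.64-fold (log2 fold change 0.71, limma adjusted p = 0.029) and is the most abundant of the list. Slc38a3 (SN1), the glutamine transporter, fell by 1.99 on the log2 scale (adjusted p = 0.0019), from 123, 50.8, 65.2 and 208 in ZL to 35.9, 18.7, 19.9 and 22.7 in ZF. Glud1, glutamate dehydrogenase, fell by 0.58 (adjusted p = 0.0015). None of the 8 passed in ZF-SGLT2i against ZF, where 2 were higher and 6 lower and 3 had an unadjusted p under 0.05, Car4 and Pck1 among them. Pck1 stood 1.51-fold higher there (adjusted p = 0.15). The rise of Pck1 in ZF was not called without ZF rat 4 or 5.

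Genes of the neighbouring principal cells moved in the same rats as the members. In ZF-SGLT2i against ZL, 9 of 11 rose (median log2 fold change 0.70), against 12.4% of all tested genes. In ZF-SGLT2i against ZF all 11 were higher (median 0.30), with 1 call. This was Aqp2, the vasopressin-regulated water channel, which rose 1.54-fold (limma adjusted p = 0.0495), a call lost in 14 of 20 alternative settings, among them leaving out any ZF-SGLT2i rat, ZF rat 2, 3 or 4, or ZL rat 1 or 3. In ZF against ZL, Scnn1g, the gamma subunit of the epithelial sodium channel, rose 1.47-fold (adjusted p = 0.0065). The most abundant gene of the list, Hsd11b2, which protects the mineralocorticoid receptor from glucocorticoids, rose 1.47-fold in ZF-SGLT2i against ZL (adjusted p = 0.0096).

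The summed level of the principal cell list was 1343 to 2082 in the ZL rats, 1728 to 2448 in the ZF rats and 2454 to 3127 in the ZF-SGLT2i rats. ZL rat 4 was lowest for 9 of 11 principal cell genes and ZF rat 5 highest for 8, as for the members. The 10 members summed to 2195 to 3288, 2356 to 3195 and 3457 to 3605 in the same order of groups. The part that an uneven share of collecting duct in the pieces of cortex has in the members' differences was not tested.

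In the distal convoluted and connecting tubule list, 5 of 7 genes were in the table. Trpv5, the apical calcium channel, rose in ZF against ZL (1.5-fold, limma adjusted p = 0.0031), and both Trpv5 and Slc12a3, the thiazide-sensitive cotransporter and most abundant gene of the list, rose in ZF-SGLT2i against ZL (1.64-fold and 1.73-fold, adjusted p = 0.00047 and 0.0037). None passed in ZF-SGLT2i against ZF, where 5 of 5 were higher and Slc12a3 alone had an unadjusted p under 0.05. ZL rat 4 was lowest for 5 of 5 and ZF rat 5 highest for 5 of 5.

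The thick ascending limb list went otherwise. None of its 7 genes passed in ZF against ZL or in ZF-SGLT2i against ZF, and only Umod (uromodulin, its most abundant gene) fell in ZF-SGLT2i against ZL, by 0.60 on the log2 scale (limma adjusted p = 0.035). At an unadjusted p of 0.05, 1 and 3 of the 7 passed in the former comparisons. The call of Umod was lost without ZL rat 1 or 4 or ZF-SGLT2i rat 2, 3 or 6. Umod was highest in ZL rat 4 (3985) and ZF rat 2 (4034), where the members' mean standardized level was -1.7 and -0.85, on a range from -1.7 to 1.0 over the 12 rats. ZF rat 4, with a Umod of 2850, had a members' level of -1.1, lower than ZF rat 2. In ZL rats 1, 2 and 3 Umod was 3014, 2190 and 2333 and the members' level -0.82, 0.6 and -0.036. In ZF rats 3 and 5 Umod was 2559 and 2418 and the members' level -0.046 and 0.54. The treated rats had Umod at 1641 to 2072 and members' levels of 0.77 to 1.0. A link between Umod and the members was not tested. With both ZL rat 4 and ZF rat 2 left out, the number of members that passed was 0, 0 and 2 in the 3 comparisons.

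Of 9 proximal tubule genes, Slc22a6, the organic anion transporter OAT1, rose in ZF and fell again in the treated rats (log2 fold change 0.33 and -0.59, limma adjusted p = 0.040 and 0.0084), the first call being lost in 10 of 20 alternative settings, among them leaving out ZL rat 1 or 4, ZF rat 3, 4 or 5, or ZF-SGLT2i rat 3 or 4. Aqp1, the water channel, fell by 0.47 in ZF against ZL (adjusted p = 0.027), which was lost without ZL rat 1 or 4 or ZF rat 2, 3 or 5. Lrp2 (megalin), the most abundant, fell by 0.75 in ZF-SGLT2i against ZL (adjusted p = 0.0057). The list summed to 20430 to 23340 in ZL, 16470 to 21250 for ZF and 13880 to 18060 for ZF-SGLT2i.

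**Figure D5:**
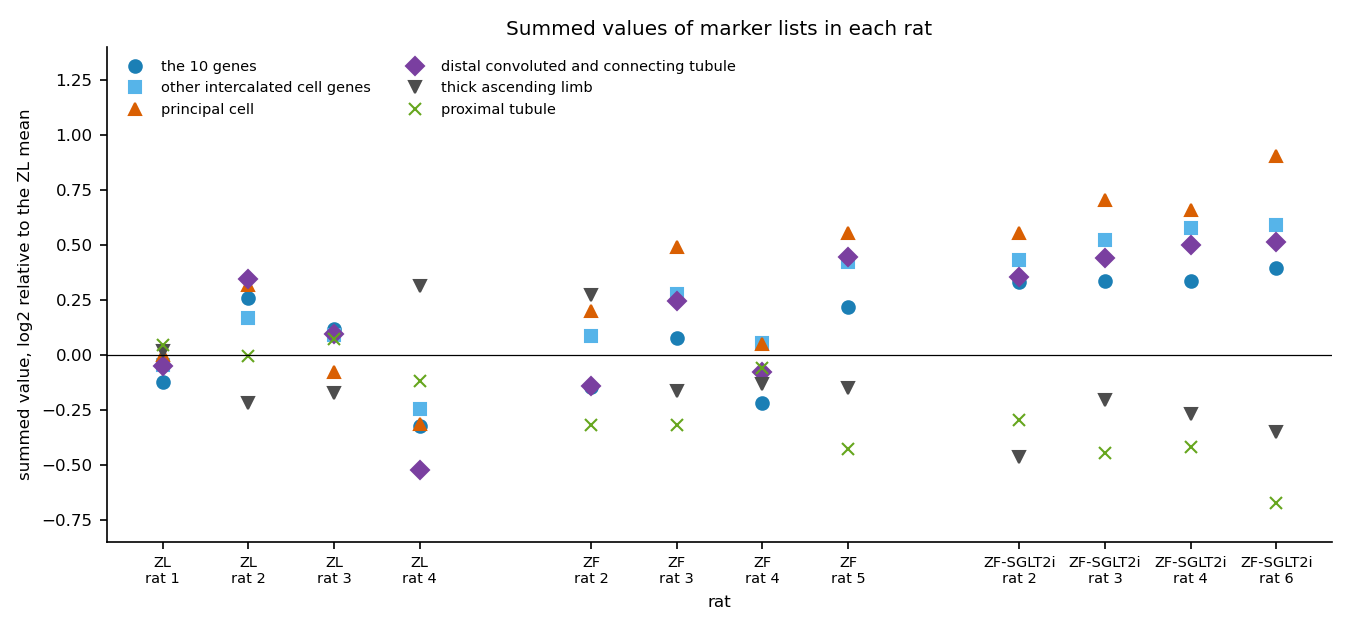
Summed normalized value of 6 gene lists in each rat, as log2 relative to the ZL mean of the same list (vertical axis). The 10 genes, other intercalated cell genes, principal cell genes and distal tubule genes are low together in ZL rat 4 and high together in the treated rats, while thick ascending limb genes are high in ZL rat 4 and ZF rat 2.

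Other parts of the kidney were read in the same way. Among inner medullary genes, Akr1b1 (aldose reductase) rose and Slc5a3 (the inositol transporter) fell in ZF against ZL, by 0.31 and 0.41 on the log2 scale (limma adjusted p = 0.022 and 0.027). The first was lost without ZL rat 3 or ZF rat 2, and the second without ZL rat 2 or 4 or ZF rat 3 or 4. Aqp4, the most abundant of that list and also a principal cell gene, rose 1.69-fold in ZF-SGLT2i against ZL (adjusted p = 0.025), lost without ZL rat 3 or 4 or ZF-SGLT2i rat 4 or 6. Of 5 podocyte genes, Nphs1 (nephrin), Synpo and Podxl rose in ZF, 1.39-fold, 1.26-fold and 1.32-fold (adjusted p = 0.0093, 0.019 and 0.033), and none passed in ZF-SGLT2i against ZF, where 1 had an unadjusted p under 0.05. Leaving out ZL rat 1 or ZF rat 2 or 5 ended the calls of Synpo and Podxl, and leaving out ZL rat 3 or 4 or ZF rat 3 ended that of Podxl.

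Atp6v0d2 is also a gene of macrophages and osteoclasts, so 7 macrophage genes were read. None passed in any comparison in the main fit, and 3, 2 and 0 had an unadjusted p under 0.05. Over the 20 alternative settings, up to 2 passed in ZF against ZL, up to 2 in ZF-SGLT2i against ZF and 0 in ZF-SGLT2i against ZL. The list summed to 72.1 to 99.1 in ZL, 88.3 to 138 for ZF and 74.6 to 147 for ZF-SGLT2i, and its most abundant gene, Csf1r, was at 31.2 ± 5.15, 41.5 ± 8.01 and 34.9 ± 7.63 (SD, n = 4). The fitted log2 fold changes of all 7 were below 0 in ZF-SGLT2i against ZF (median -0.24), and that of Atp6v0d2 was above 0. The group mean of C1qb, however, was 10.21 in ZF-SGLT2i and 10.15 in ZF. Adgre1 was at 31.7 in ZF-SGLT2i rat 2, the highest of the 12 rats. The part that macrophages have in the level of Atp6v0d2 was not tested.

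Among the 6 genes outside the members whose level over the 12 rats was most like the members' mean standardized profile were Sall3, Wnk1, Lnx1, Itpr2 and Lhx1. Sall3, a zinc finger transcription factor, had a Pearson r of 0.969 (Spearman rho 0.937, n = 12 rats). It averaged 27.3 in the ZL rats, 28.5 in the ZF rats and 38.6 in the treated rats. The lowest r of the 5 was 0.95 (Lhx1), and with any single rat left out their values stayed between 0.943 and 0.982. These points share group, library and the pieces of tissue, and the correlations are descriptions.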

How the data were processed

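Total RNA of renal cortex was made into rRNA-depleted, directional libraries and sequenced as paired-end reads by the authors. The submitters' processing notes name Trimmomatic 0.38, RSEM 1.3.0, Bowtie2, edgeR and the build rn6, with no role or order. The deposited signal values, 1 column a rat, are normalized gene levels that sum to nearly the same total in each rat (948262 to 1058520). The authors' factors are not given in the sources used here.

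The values were tested with limma 3.58.1 (R 4.3.3) on log2(value + 1), two-sided, with the 3 groups in one fit (lmFit, eBayes with trend). Genes that reached a value of 1 in 4 or more rats entered, and p-values were adjusted by Benjamini-Hochberg over 11633 genes and called under 0.05. Fold changes are on the log2(value + 1) scale, which understates low genes. Ratios within rats were compared by exact permutation tests over 70 assignments (smallest p 0.0286). Calculations used Python 3.11.15 with scipy 1.17.1. The fit was checked on simulated data.

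Named genes were the members, the 4 paired isoforms and every called V-ATPase subunit, up to 4 genes of each other list called in ZF against ZL or ZF-SGLT2i against ZF plus its most abundant gene, and the 6 genes most like the members; some of these are not reported here. The members and lists were chosen with earlier results of these data known. Each rat is a separate animal. No 2 libraries of the same group agreed within sampling noise. Genomic coordinates are RefSeq's on GRCr8, used for promoters only. Alternatives covered the pseudocount, filters, rescaling, the groups fitted, the rat number as a block, and leaving out each rat.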

Additional observations from a re-analysis of the deposited data

Results flagged for a closer look

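In each group of 4 rats, the highest or lowest rat of every named gene was set against its nearest neighbour, as the gap over the group's range (Dixon's 95% value for 4 samples). Of 147 groups of values looked at, 7 stood out, where chance gives about 7.3. No member gene was among them. Tcirg1 was 17.1 in ZL rat 2, above 14.2 to 14.6 in the other ZL rats. Atp6v0e2 was 73.3 in ZL rat 3, below 78.3 to 78.5 in the others. Slc22a6 was 525 in ZL rat 4, below 707 to 726 in the others. The podocyte genes Nphs1 (173, against 132 to 134) and Synpo (157, against 123 to 128) were high in ZL rat 2. In ZF-SGLT2i rat 2, Nphs1 (173, against 203 to 207) and Podxl (881, against 1120 to 1160) were low.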

How the results depend on the processing

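In both comparisons of ZF-SGLT2i rats the direction of every member held under all 20 alternatives, except Rhbg against ZF without ZF rat 4 (-0.044). Reversals were otherwise in ZF against ZL, among members with log2 fold changes near 0. Under quantile normalization Atp6v0a4 (0.217, the 1 member then called), Atp6v1g3 (0.0799), Slc4a9 (0.0665) and Foxi1 (0.037) turned positive. With rat numbers as a replicate block, Atp6v0d2 (-0.082) and Rhcg (-0.0578) turned negative, as they did without both ZL rat 4 and ZF rat 2, an alternative added after seeing the data (-0.0865 and -0.0156). Leaving out each rat in turn, the ZF against ZL values ran from -0.0397 to 0.189 for Atp6v1b1, -0.0998 to 0.125 for Atp6v0d2, -0.0715 to 0.0272 for Atp6v0a4, -0.141 to 0.101 for Atp6v1g3, -0.19 to 0.104 for Slc4a9, -0.0401 to 0.187 for Rhcg and -0.201 to 0.141 for Foxi1. Rhbg against ZF ran from -0.0437 to 0.153. The cause of these reversals was not tested.

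Members called ranged over the left-out rats from 0 to 1, 0 to 5 and 2 to 7 in the 3 comparisons as ordered in the report, and all genes called from 1389 to 2453, 176 to 570 and 2241 to 3302. Without both ZL rat 4 and ZF rat 2, ZF against ZL had 1225 genes called and ZF-SGLT2i against ZL 2 members. In a fit of the pair of groups alone, 5 members were called in ZF-SGLT2i against ZF. With the replicate block, genes called were 807, 223 and 1502 and members called 0, 3 and 3. Same-numbered rats deviated with correlations of -0.376 to 0.253, so that the numbers do not pair the rats. The ratios kept their calls with a pseudocount of 0.1. Quantile normalization moved the ZF against ZL calls from 953 higher and 1232 lower to 1103 and 942.

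The count tests planned as alternatives were not run: the deposited values are normalized, and in ZF rat 3 and ZF-SGLT2i rats 3 and 4 the step between values is close to a round number and was not taken as 1 read. The members stood at 697 or more multiples of the smallest value in every rat. If 1 multiple is 1 read, counting error comes near the spread of the treated rats for Slc4a1, Atp6v0a4 and Atp6v0d2. Ribosomal RNA genes took 7.25% to 12% of the summed values in the ZL rats, 8.82% to 12% in the ZF rats and 11.5% to 15.2% in the ZF-SGLT2i rats. The part this share has in the differences was not tested.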
